A study of Mus musculus with 6 samples.

Results

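The 39 genes described here encode proteins of the nuclear pore (28 genes) and of the nuclear lamina and inner nuclear membrane (11 genes), out of 21883 protein-coding mouse genes with an annotated position. They were named by function and not by any measured value, though earlier results of these data were known when they were chosen. A gene was held by a list of ATAC-seq peaks where a peak overlapped the 1 kb either side of its annotated start or end in mm10. Such a peak is called a boundary peak, and the gene's score is the highest score among its boundary peaks.

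ATAC-seq finds accessible DNA with Tn5, a transposase that cuts and tags open chromatin. It was done in CGR8 Cdt1-MD cells, a mouse embryonic stem cell line, in 3 groups named mito, LM and eG1-1 with 2 replicates each. All 6 samples were untreated and came from N2B27 medium with the GSK3 inhibitor CHIR99021, the MEK inhibitor PD184352 and leukemia inhibitory factor. As the title of the series speaks of mitotic exit, the names were taken to stand for mitosis, late mitosis and early G1, although the labels never expand these names and LM peaks are named Telo. The cell line is a single line, and how the groups were sorted is not given in the sources used here.

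Nuclear pores are rings of nucleoporins through which proteins and RNA pass between nucleus and cytoplasm, and the lamina is a mesh of lamin filaments under the inner nuclear membrane that anchors chromatin. Both come apart when an animal cell enters mitosis. They are rebuilt around the chromosomes as mitosis ends, beginning with chromatin-bound factors such as Ahctf1 (ELYS) and Banf1 (BAF), followed by pore scaffold, membrane proteins and lamins. Most of these proteins are carried over from the mother cell, so accessibility at their genes does not show their protein level.

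In replicate order, there were 24598 and 30446 peaks for mito, 23867 and 20639 for LM, and 32101 and 48396 for eG1-1. Depth is unknown because no read counts come with the lists, and absence of a peak cannot be told from lack of reads. LM replicate 2 stood apart as the shortest list, and counts that it moves by more than 1.5 times are given with and without it. Per the peak names, all replicate 1 lists came from 1 sequencing run and all replicate 2 lists from another. Of 12 embryonic stem cell marker genes, 11 and 9 were held in mito, 6 and 4 in LM, then 4 and 9 in eG1-1, with Esrrb in none; their part in the results below was not tested. The lists held 1 to 3 of 8 fibroblast markers, 0 of 4 blood markers, 1 to 2 of 4 neural markers and 0 to 1 of 4 endoderm markers. The labels do not say that replicates were separate cultures, so spreads and p-values cover only how these samples differ, and that spread may be technical.

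Each of the 6 lists held a larger share of the pore and lamina genes than of all protein-coding genes. Of the 39 genes, 34 (87.2%) were held in mito replicate 1 and 36 (92.3%) in mito replicate 2. LM replicate 1 also held 34 (87.2%), LM replicate 2 held 22 (56.4%), eG1-1 replicate 1 held 27 (69.2%) and eG1-1 replicate 2 held 30 (76.9%). Of all protein-coding genes, the same lists held 46.5%, 50.4%, 47.4%, 35.7%, 42.1% and 52.7%. The excess over all genes was therefore 40.6 and 41.9 percentage points in mito, 39.8 in LM replicate 1, 20.7 in LM replicate 2, then 27.2 and 24.2 in eG1-1. Both mito lists thus lay above both eG1-1 lists in the share of pore and lamina genes, while the 2 LM lists lay on opposite sides of the eG1-1 lists. The mean share (± SD, n = 2 lists) was 89.7% ± 3.63 for mito, 71.8% ± 21.8 for LM and 73.1% ± 5.44 for eG1-1. A comparison of 2 lists with 2 cannot go below an exact two-sided permutation p of 0.333, so these group differences carry no test. In bulk samples, fewer cells with an open site and less opening per cell cannot be told apart.

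**Figure D1:**
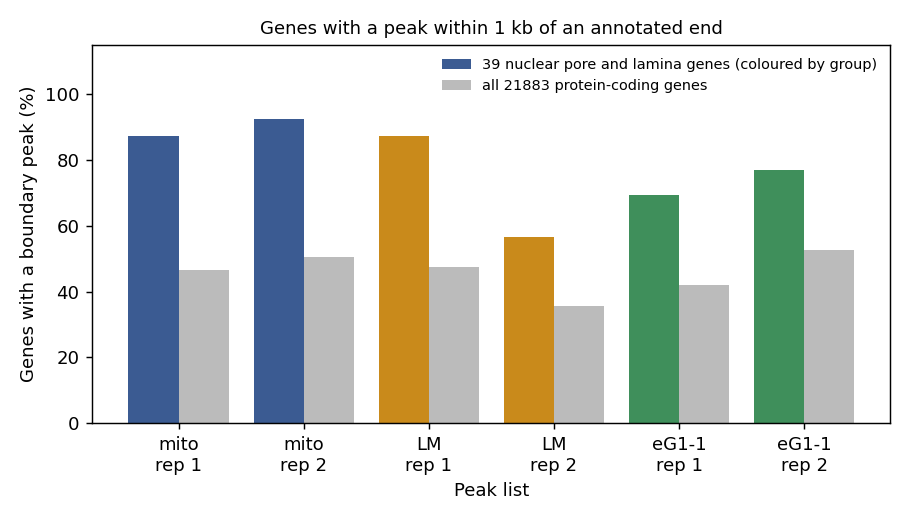
Share of the 39 pore and lamina genes (coloured bars) and of all protein-coding genes (grey bars) with a boundary peak, in percent, in each of the 6 peak lists. The coloured bar exceeds the grey one in each list, from 56.4% against 35.7% in LM replicate 2 to 92.3% against 50.4% in mito replicate 2.

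Both mito lists also lay above both eG1-1 lists when only the 20639 strongest peaks per list were kept, with 82.1% and 76.9% of the genes held in mito, against 59.0% and 61.5% in eG1-1. Of all genes, 43.7% and 43.5% were then held in mito, against 34.5% and 35.8% in eG1-1. The LM lists then held 82.1% and 56.4% of the pore and lamina genes, beside 44.9% and 35.7% of all genes. With peaks of score 50 or more the order was no longer clear, since 74.4% and 76.9% of the genes were held in mito and 53.8% and 74.4% in eG1-1, beside 35.4% and 41.5%, and 29.6% and 41.6%, of all genes. Counting only peaks at the start, in the 33 genes with a start in the promoter table, gave 84.8% and 90.9% for mito, 90.9% and 57.6% for LM, and 66.7% and 75.8% for eG1-1. All genes of that table gave 48.3% and 52.0%, 49.3% and 37.0%, and 43.4% and 53.2% in the same order.

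A boundary peak was present in all 6 lists for 19 of the 39 genes (48.7%), against 27.8% of all protein-coding genes. Without LM replicate 2, 24 genes were held in the remaining 5 lists, beside 32.8%. Both mito lists held 33 genes, both LM lists 22 and both eG1-1 lists 26, beside 43.1%, 32.7% and 39.4% of all genes. LM replicate 1 alone held 34, beside 47.4%. Only Nup160 and Nup210 were held in no list, whereas 38.6% of all genes were. Sun2 was held in 1 list, Lbr in 2 lists, and Nup43, Nup188, Nup153 and Banf1 in 3. Pore genes were held in 136 of 168 pairs of gene and list, and lamina and envelope genes in 47 of 66. Of all genes, 35.7% to 52.7% were held per list. Of the 28 pore genes, 24 and 26 were held in mito, 24 and 17 in LM, then 21 and 24 in eG1-1. Of the 11 lamina and envelope genes, 10 and 10, 10 and 5, and 6 and 6 were held in the same order.

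**Figure D2:**
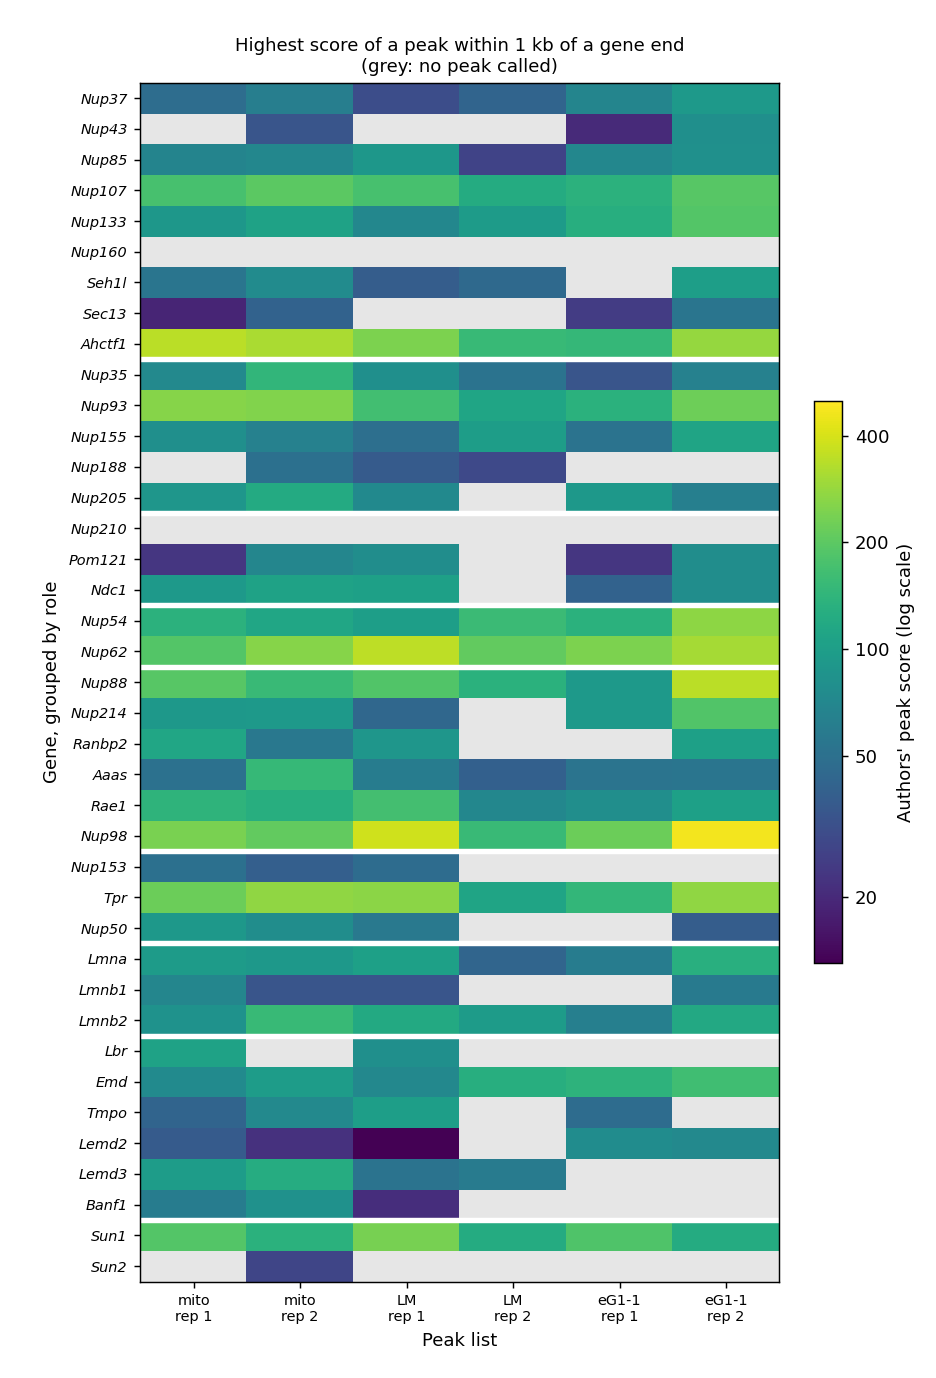
The authors' peak score on a log colour scale for the strongest boundary peak of each of the 39 genes (rows, grouped by role) in each of the 6 lists (columns), with grey cells where no peak was called. Most grey cells lie in the LM replicate 2 and eG1-1 columns, and Nup160 and Nup210 are grey throughout.

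The Y complex forms the outer scaffold rings of the pore, and 5 of its 9 genes were held in all lists. The others were Nup43, Sec13, Seh1l and Nup160. Nup43 scored 34 in mito replicate 2 and 20 and 80 in the eG1-1 lists, and had no peak in mito replicate 1 or in LM. Sec13, whose product also coats COPII vesicles, scored 19 and 41 in mito, 25 and 54 in eG1-1, and had no peak in either LM list. Seh1l, whose product also serves in the GATOR2 complex of nutrient signalling, scored 54 and 76 in mito, 38 and 45 in LM, and 101 in eG1-1 replicate 2, with no peak in eG1-1 replicate 1. Nup43 and Sec13 thus lay below the median score of all held genes wherever they had a peak, and Seh1l exceeded it only in eG1-1 replicate 2, where it was 98. The scores are the authors' own values, and lists are compared below by the rank of a score within its list.

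Within the inner ring, which lines the channel wall, 3 of 5 genes were held in all lists. Nup188 and Nup205, a pair of large related scaffold proteins, were the exceptions. Nup188 scored 50 in mito replicate 2 and 37 and 29 in LM, and had no peak in mito replicate 1 or in eG1-1; its window also holds the end of Dolk. Nup205 scored 89 and 121 in mito, 74 in LM replicate 1, then 91 and 63 in eG1-1, and lacked a peak only in LM replicate 2.

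None of the 3 membrane ring genes, which anchor the pore in the envelope, was held in all lists. Ndc1 scored 93 and 107 in mito, 103 in LM replicate 1, then 41 and 78 in eG1-1. Pom121 scored 23 and 69 in mito, 78 in LM replicate 1, then 23 and 78 in eG1-1. Both were missing only from LM replicate 2. Nup210, a membrane nucleoporin whose expression differs between cell types, had no boundary peak, but its start in the promoter table lies 1496 bp inside the annotated end. Within 1 kb of that start it scored 92 and 97 in mito, 129 in LM replicate 1 and 45 in eG1-1 replicate 1, with no peak in the other two lists.

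The 2 central channel genes, Nup54 and Nup62, which carry the phenylalanine-glycine repeats that sort cargo, were held in all lists. So were 4 of the 6 genes of the cytoplasmic side and of mRNA export, namely Nup88, Aaas, Rae1 and Nup98. Nup214, which works with Nup88 in export and has an end of Aif1l in its window, scored 91 and 92 in mito, 44 in LM replicate 1, then 92 and 185 in eG1-1. Ranbp2, the SUMO ligase of the cytoplasmic filaments, scored 113 and 56 in mito, 89 in LM replicate 1 and 104 in eG1-1 replicate 2. Each was missing from LM replicate 2, and Ranbp2 also from eG1-1 replicate 1.

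The nuclear basket, which projects from the pore toward chromatin, had 1 of 3 genes held in all lists. Tpr, its main fibre, scored 219 and 272 in mito, 265 and 109 in LM, then 145 and 273 in eG1-1. Nup50, which helps to release cargo from importins, scored 91 and 78 in mito, 57 in LM replicate 1 and 38 in eG1-1 replicate 2. Nup153, which docks the basket to the ring, scored 50 and 39 in mito and 47 in LM replicate 1, and had no peak in the other three lists. All 3 basket genes were thus held in each mito list, 3 and 1 of them in the LM lists, and 1 and 2 in the eG1-1 lists. Of all genes, the lists held 46.5% and 50.4% in mito, 47.4% and 35.7% in LM, then 42.1% and 52.7% in eG1-1.

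Of the lamins, Lmna and Lmnb2 were held in all lists and Lmnb1 in 4. Lmna, which encodes lamins A and C, scored 97 and 91 in mito, 104 and 43 in LM, then 60 and 130 in eG1-1. Lmnb1, a main B-type lamin of stem cells, scored 69 and 34 in mito, 34 in LM replicate 1 and 58 in eG1-1 replicate 2. The latter peak lay at the opposite end of the gene from the other three. The Lmnb2 window also holds ends of Timm13 and Tmprss9. Its end side was held in all 6 lists and gave its score in each, at 84 and 153 in mito, 120 and 96 in LM, then 63 and 117 in eG1-1. Within 1 kb of its 2 starts in the promoter table, Lmnb2 scored 53 in mito replicate 2, 60 and 66 in LM, then 36 and 75 in eG1-1, with no peak in mito replicate 1.

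Of the 6 genes that tether the inner membrane to chromatin, each eG1-1 list held fewer than either mito list, whereas of all genes the eG1-1 lists held 42.1% and 52.7% and the mito lists 46.5% and 50.4%. There were 6 and 5 of them in mito, against 3 and 2 in eG1-1, and 6 in LM replicate 1 and 2 in LM replicate 2. Emd (emerin, a LEM-domain protein that binds Banf1) was the only one held in all 6 lists, at 75 and 98 in mito, 71 and 129 in LM, then 137 and 164 in eG1-1. Lbr, the lamin B receptor and a sterol reductase, scored 106 in mito replicate 1 and 80 in LM replicate 1, both from the same sequencing run, and had no peak in the other four lists. Tmpo, which encodes the lamina-associated polypeptides 2, scored 42 and 72 in mito, 101 in LM replicate 1 and 47 in eG1-1 replicate 1. Lemd2 scored 37 and 22 in mito, 13 in LM replicate 1, then 77 and 72 in eG1-1. For Lemd2, the mito peaks and the LM peak lay at opposite ends of the gene. The eG1-1 peaks of 77 and 72 also lay at opposite ends, the first at the end of the LM peak. At that end eG1-1 replicate 2 scored 45.

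Lemd3 and Banf1 had boundary peaks in mito but none in eG1-1. Lemd3 (MAN1), a LEM-domain membrane protein that also binds SMAD signalling proteins, scored 98 and 125 in mito, 52 and 59 in LM, and had no boundary peak in eG1-1. Banf1, a small DNA-bridging protein that holds mitotic chromosomes together inside 1 nucleus, scored 60 and 82 in mito and 21 in LM replicate 1, and had none in LM replicate 2 or in eG1-1. The LM peak of Banf1 lay 435 bp before the gene start and overlapped neither mito peak. The Banf1 window also holds the end of Eif1ad, so its peaks cannot be given to 1 gene. In the LINC complex, which links the lamina to the cytoskeleton, Sun1 was held in all lists at 187 and 134 in mito, 238 and 123 in LM, then 184 and 122 in eG1-1. Sun2 was held only in mito replicate 2, at 28.

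The comparison of mito with eG1-1 asked which of these genes were accessible at one end of the time course and not at the other. Lemd3, Banf1 and Nup153 were held in both mito lists and neither eG1-1 list, which is 3 of 39 genes (7.69%) beside 1.97% of all protein-coding genes. None of the 39 was held in both eG1-1 lists and neither mito list, beside 1.60% of all genes. The first count was 7 without eG1-1 replicate 2 (beside 7.88%) and 5 without mito replicate 1 (beside 3.72%). It was 4 with lists of equal length (beside 5.36% of all genes) and 1 with windows of 2 kb (beside 1.61%). For Lemd3, eG1-1 replicate 2 did hold a peak of score 13, the lowest in the list, within 1 kb of the start in the promoter table but outside the window of the annotated end. Among the other pairs of groups, Sec13 had a peak in both mito and neither LM list, beside 2.17% of all genes, and this count was 12 without LM replicate 1 (beside 11.3%). None was held in both LM lists and neither mito list, beside 0.356%. Nup188 and Lemd3 were held in both LM lists and neither eG1-1 list, beside 0.480%, a count of 5 without LM replicate 2 (beside 3.27%). Nup43 and Sec13 were in eG1-1 and not in LM, beside 2.35%, a count of 7 without LM replicate 1 (beside 8.83%).

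The bases before the annotated starts of Lemd3 and Nup153 are shown because these promoters had boundary peaks in mito and not in eG1-1, and Banf1 is named only. They are from RefSeq (GRCm38.p6), run 5′ to 3′ on the minus strand, and stop at the annotated gene start. Lemd3 covers chr10:120979397-120979580 (184 bases, 79.9% G or C, 30 CpG sites) and Nup153 chr13:46727850-46728099 (250 bases, 73.2% G or C, 37 CpG sites). Capitals mark the motif letters CCAAT (read as ATTGG on the other strand) in Lemd3 and GGGCGG in Nup153.
Lemd3: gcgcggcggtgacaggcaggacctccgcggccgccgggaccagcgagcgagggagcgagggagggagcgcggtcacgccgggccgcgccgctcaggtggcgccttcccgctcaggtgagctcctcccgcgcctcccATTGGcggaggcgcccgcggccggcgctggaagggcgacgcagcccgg
Nup153: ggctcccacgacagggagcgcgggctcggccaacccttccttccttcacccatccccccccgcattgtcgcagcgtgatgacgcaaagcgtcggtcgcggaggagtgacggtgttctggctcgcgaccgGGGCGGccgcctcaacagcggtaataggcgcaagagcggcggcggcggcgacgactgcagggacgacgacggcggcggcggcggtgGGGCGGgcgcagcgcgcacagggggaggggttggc
The Lemd3 boundary peaks covered 60 and 16 of these bases in mito, 6 and 51 in LM and 0 in eG1-1. The Nup153 peaks covered 64 and 55 bases in mito and 0 in the other lists, since the LM replicate 1 peak lay 766 bp from the gene end. The strongest Lemd3 peaks thus lay mostly inside the gene. In Nup153 they were different peaks, since the strongest in mito replicate 1 ended 185 bp inside the gene and that of mito replicate 2 began 196 bp before it. A second peak of mito replicate 1, of score 44, began 187 bp before it.

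How high the retained genes stood was compared by rank. Each gene's score was ranked among the 6078 protein-coding genes held in all 6 lists, with 100 the highest, so that each list ranked the same genes. The median rank of the 19 pore and lamina genes was 65.3 and 57.3 in mito, 54.4 and 66.9 in LM, then 65.6 and 53.0 in eG1-1. They thus lay slightly above the middle rank of 50 in each list, and the groups overlapped.

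The 6 genes with the highest median rank were Nup62, Nup98, Ahctf1, Tpr, Nup88 and Sun1. Nup62 ranked at 81.8 and 91.1 in mito, 97.3 and 93.0 in LM, then 91.1 and 85.0 in eG1-1, with scores from 187 to 349. Nup98, a mobile nucleoporin with roles in export and transcription, ranked at 90.8 and 82.4, 98.4 and 83.9, and 88.0 and 96.1 in the same order, with scores from 155 to 466. Both stayed above 80 in each list, but the Nup62 window also holds ends of Atf5 and Il4i1b, and that of Nup98 an end of Pgap2. Tpr ranked at 88.0 and 93.3 in mito, 92.5 and 66.9 in LM, then 71.9 and 80.2 in eG1-1, with an end of Odr4 in its window. Nup88, whose window also holds an end of Rpain, ranked at 83.5 and 62.4 in mito, 80.0 and 78.0 in LM, then 47.8 and 88.5 in eG1-1. Sun1 ranked at 81.8 and 52.2, 89.7 and 74.2, and 82.1 and 35.4. For Nup88 and Sun1 the 2 eG1-1 lists lay further apart than the group means did.

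The 6 with the lowest median rank were Nup37, Aaas, Nup85, Nup155, Nup35 and Lmna. Nup37, a small Y complex subunit that shares its window with an end of Parpbp, ranked at 8.70 and 7.44 in mito, 1.99 and 15.1 in LM, then 30.6 and 22.0 in eG1-1. Nup35, an inner ring linker, ranked at 24.9 and 57.3 in mito, 30.3 and 24.9 in LM, then 5.76 and 9.04 in eG1-1. These 2 genes differed in opposite directions, with no overlap between mito and eG1-1 in either. Aaas (ALADIN) ranked at 10.2 and 60.5 in mito, 16.5 and 13.6 in LM, then 19.0 and 5.31 in eG1-1. Nup85 ranked at 21.5 and 11.7, 36.9 and 3.86, and 32.1 and 15.8, and Nup155 at 30.3 and 8.95, 8.95 and 61.6, and 18.3 and 28.9. Lmna ranked at 42.9 and 23.8, 45.5 and 16.0, and 24.8 and 39.2. For these 4 genes the groups overlapped between mito and eG1-1.

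Ahctf1 and Nup107 were the 2 genes whose rank was highest in both mito lists, intermediate in LM and lowest in both eG1-1 lists. Ahctf1, at chr1:179744904-179804015, seeds pore assembly on chromatin at the end of mitosis. It scored 342 and 316 in mito, 245 and 153 in LM, then 147 and 281 in eG1-1, which are ranks of 97.8 and 96.2, 90.8 and 83.5, and 72.7 and 81.5. Its mean rank (± SD, n = 2 lists) was 97.0 ± 1.11 for mito, 87.1 ± 5.19 for LM and 77.1 ± 6.17 for eG1-1. Nup107, a stalk subunit of the Y complex at chr10:117750621-117792736, scored 172 and 198 in mito, 173 and 123 in LM, then 136 and 195 in eG1-1. Its ranks were 77.9 and 79.6, 77.0 and 74.2, and 68.6 and 63.5, with means of 78.7 ± 1.23, 75.6 ± 2.00 and 66.0 ± 3.60.

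The slope over the order mito, LM, eG1-1 was -9.95 ranks per step for Ahctf1 and -6.36 for Nup107. Both reached the smallest p that an exact two-sided permutation test over 90 assignments of the lists can give, 0.0222, and neither passed after Benjamini-Hochberg adjustment over all 6078 genes (adjusted p = 0.450 for the 2 genes). They were 2 of 19 genes with a falling order of that p, beside 2.40% of all ranked genes, and 0 of 19 had the rising order, beside 2.53%. At an unadjusted exact p under 0.05 there were 565 of 6078 genes and 3 of the 19, the third being Nup93 (slope -11.0, p = 0.0444). These p-values permute the lists across sequencing runs. Within runs there are fewer assignments, so the smallest p that can be reached is larger. In that form, 2 of 19 genes had the falling order at the smallest p, beside 5.08%. Without mito replicate 2, the falling order at the smallest p was found in 0 genes (beside 2.98%), and without LM replicate 1 in 4 (beside 6.11%).

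Nup93, which joins the inner ring to the channel, scored 258 and 250 in mito, 165 and 111 in LM, then 134 and 222 in eG1-1. Its ranks were 93.0 and 90.0 in mito, 74.1 and 68.3 in LM, then 67.9 and 71.1 in eG1-1, so mito lay apart and the other groups overlapped. Counted over pairs of groups, 7 of 19 genes (36.8%) ranked higher in both mito lists than in both eG1-1 lists, beside 24.2% of all ranked genes: Ahctf1, Nup107, Nup93, Nup35, Rae1, Tpr and Lmnb2. The 4 genes with the opposite order (21.1%, beside 23.5%) were Nup37, Nup133, Nup54 and Emd. Emd, at a mean rank of 27.6 ± 0.960 in mito and 60.9 ± 11.2 in eG1-1 (SD, n = 2 each), had the largest mean difference of those 4. For Lmnb2, the rank in each list is that of the peak on its end side. When only peaks at the start were counted, 16 genes could be ranked. Of these, 5 ranked higher in mito (beside 24.2%) and 5 higher in eG1-1 (beside 23.4%), so neither order was more frequent. Nup133, a Y complex subunit that helps to anchor the scaffold, ranked at 38.0 and 33.6 in mito and at 65.6 and 61.5 in eG1-1. These eG1-1 ranks rest on peaks of score 128 and 189 that lay 991 and 872 bp before the start. The eG1-1 peaks at the Nup133 start itself scored 50 and 88. In each mito list a single wide peak, of score 90 and 106, reached over both places. Rae1, which exports mRNA together with Nup98, ranked at 66.8 and 48.8 in mito and at 38.6 and 26.1 in eG1-1. In neither gene did mito and eG1-1 overlap. Against LM, 3 of 19 genes (15.8%) ranked higher in mito, beside 16.9%, and 1, Nup62 (5.26%), ranked lower, beside 17.2%. LM exceeded eG1-1 in 6 genes (31.6%, beside 18.4%), and eG1-1 exceeded LM in 2, Nup37 and Nup133 (10.5%, beside 18.7%). Without LM replicate 2, 24 genes could be ranked. Of these, 10 ranked higher in mito than in LM (beside 33.3%) and 8 lower (beside 33.1%), and LM exceeded eG1-1 in 14 (beside 37.4%) and was exceeded in 7 (beside 36.3%).

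**Figure D3:**
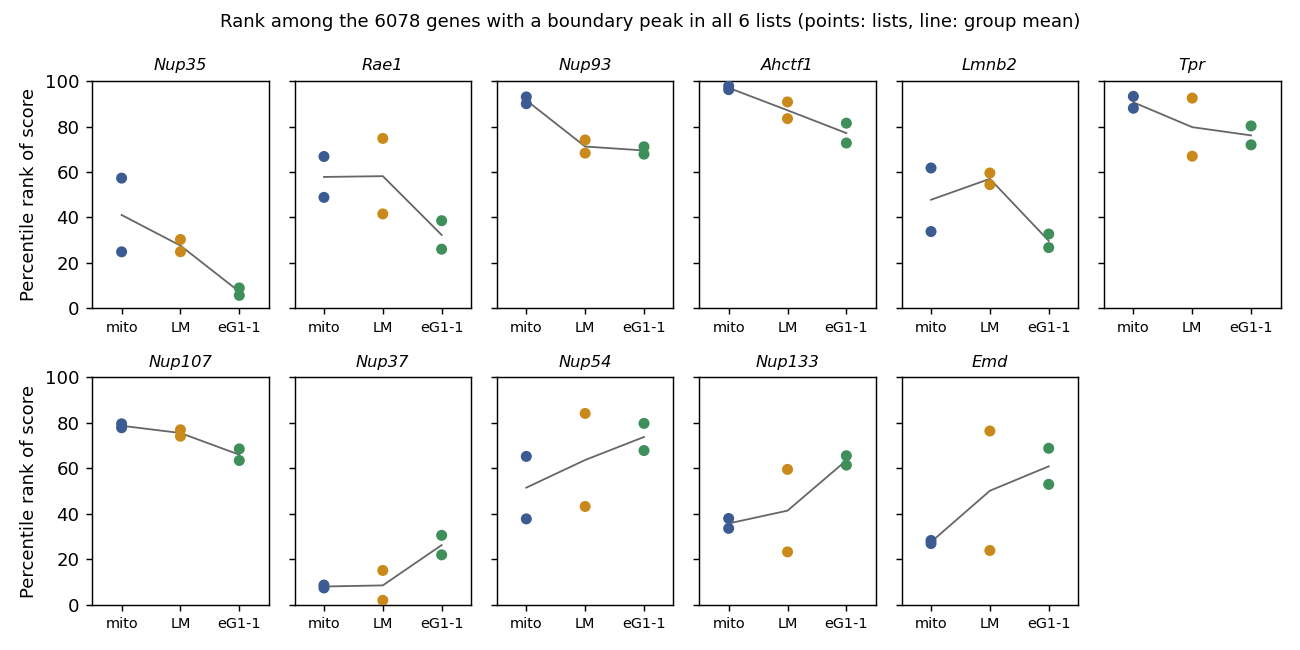
Percentile rank of the score (y axis, 0 to 100) in the 6 lists, 1 panel for each of the 7 genes ranked higher and the 4 ranked lower in both mito than in both eG1-1 lists, with a point per list and a line through the group means of mito, LM and eG1-1. The groups of Ahctf1 and Nup107 descend in order, and both eG1-1 lists of Nup37 and Nup133 lie above all other lists.

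The position of the peak at the start of each gene was measured next, since start peaks sat differently in the groups. For 33 of the 39 genes the promoter table gives a start and a strand. Nup43, Nup85, Seh1l, Nup35, Lmnb1 and Lemd2 are not in it. Of 154 pairs of such a gene and a list with a boundary peak, 153 had one on the start side. The strongest peak within 300 bp of the start was taken as the start peak, a choice made after the data had been seen. It was present in all 6 lists for 14 of the 33 genes and for 4343 of 17491 genes in the table.

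By the list medians over the 14 genes, start peaks reached further into the gene in mito than in eG1-1. The downstream edge lay 375 ± 119 bp past the start in mito, 253.5 ± 78.5 bp in LM and 83.0 ± 38.9 bp in eG1-1 (mean ± SD of the list medians, n = 2 each). The list medians over the 14 genes were 291 and 459 bp in mito, 309 and 198 bp in LM, then 55.5 and 110.5 bp in eG1-1, against 267 and 302, 294 and 111, and 150 and 233 bp over all 4343 genes. In 8 of 14 genes (57.1%) the edge lay further downstream in both mito lists than in both eG1-1 lists, beside 31.4% of all genes. None had the opposite order, beside 7.23%. The 8 were Nup107, Ahctf1, Nup155, Nup54, Nup62, Nup88, Aaas and Rae1. Peaks as a whole were wider in mito, at a median of 456 and 503 bp, against 340 and 410 bp in eG1-1 (459 and 336 bp in LM), and the part of peak width in this result was not tested. Where the start peak had to cover the start base itself, the count was 5 of 9 genes, beside 32.4%. Only the strongest peak counts in this measure, so a further peak inside the gene is left out. In Rae1, such a peak of eG1-1 replicate 2 (score 22) began 384 bp past the start. That lies beyond the Rae1 mito edges of 298 and 45 bp. Mito replicate 2 had such a peak in Ahctf1 (score 30).

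Nup54 and Nup88 were 2 of these 8. The Nup54 peak ended 284 and 300 bp past the start in mito, 679 and 276 bp in LM, then 33 and 43 bp in eG1-1. That of Nup88 ended at 265 and 462 bp, 288 and 18 bp, and 23 and 52 bp. In both genes the 2 eG1-1 lists were close to each other and far from mito. The Nup107 peak ended at 346 and 484 bp in mito, 163 and 378 bp in LM, then 20 and -19 bp in eG1-1, where a negative value means that it ended before the start. For Ahctf1 the edges were 538 and 456 bp, 456 and 350 bp, and 383 and 371 bp. Nup98 did not take part, with edges of 26 and 13 bp in mito and 13 and -5 bp in eG1-1. Nup93 lay further downstream in mito than in LM, at 446 and 483 bp against 327 and 297 bp. It was the only gene of the 14 to do so, beside 23.9% of all genes. Its eG1-1 edges, at 483 and 680 bp, also lay further downstream than in LM (beside 12.2%). They did not fall short of its mito edges. No gene had an edge further downstream in LM than in mito (beside 4.74%), and 4 had one further downstream in LM than in eG1-1 (Nup107, Nup155, Nup54 and Nup62; beside 11.1%). Without LM replicate 2, 18 genes had a start peak in the remaining lists. The edge then lay further downstream in LM than in eG1-1 in 14 of them (beside 50.5%), in mito than in LM in 3 (beside 29.1%) and in LM than in mito in 6 (beside 34.1%). Without LM replicate 1, mito exceeded LM in 12 of 14 (beside 65.4%).

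The upstream edge did not differ in 1 direction. It lay further upstream in mito than in eG1-1 in 3 genes (Nup93, Rae1 and Sun1; beside 27.4%) and the opposite way in 3 (Nup62, Aaas and Emd; beside 11.4%). The list medians of the upstream edge were 349 and 339 bp in mito, 401 and 325 bp in LM, then 328 and 342 bp in eG1-1. On the gene side of the start the eG1-1 medians thus lay below those of both other groups, while mito and LM overlapped. On the other side the 3 groups overlapped.

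**Figure D4:**
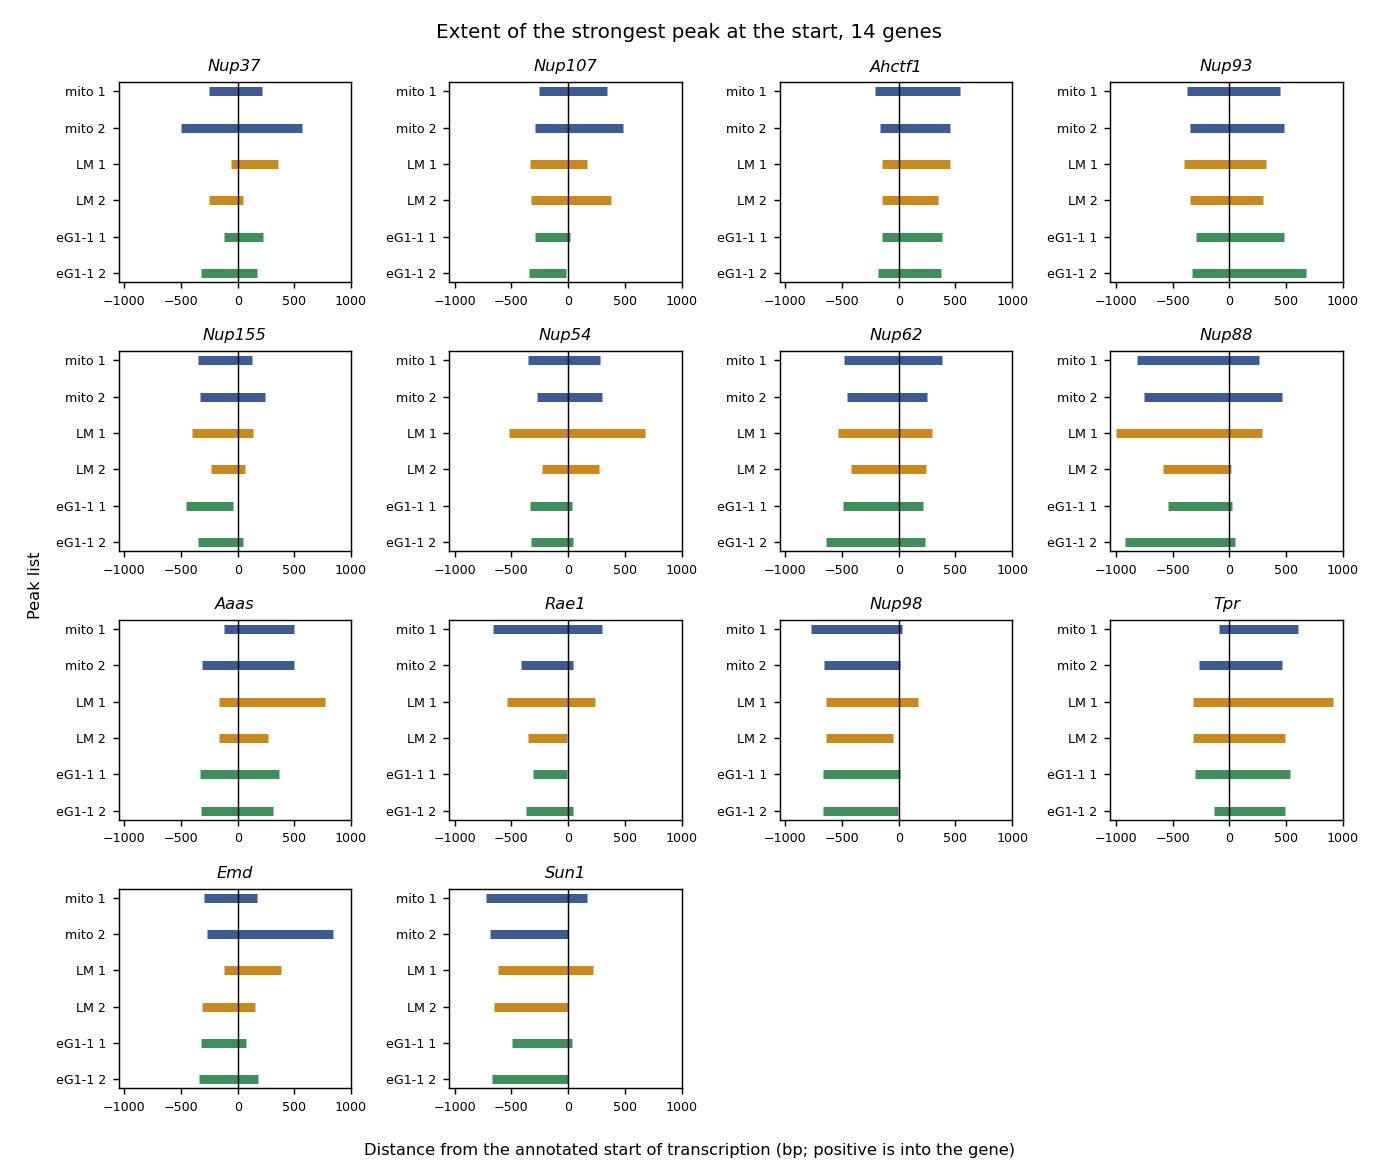
Extent of the strongest start peak in bp relative to the start of transcription (x axis, positive into the gene) for the 14 genes with a start peak in all lists, with 1 bar per list coloured by group. The right-hand ends of the bars lie nearer the start in eG1-1 than in mito for 8 genes, among them Nup54 and Nup88, and Nup98 shows no such difference.

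The bases before the annotated starts of Nup107, Nup54 and Ahctf1 are shown because the start peaks of these 3 genes differed in extent, and Nup107 and Ahctf1 also in rank. They are from RefSeq (GRCm38.p6) and run 5′ to 3′ on the minus strand. Nup107 covers chr10:117792737-117792955 (219 bases, 67.6% G or C, 18 CpG sites), Nup54 chr5:92435260-92435449 (190 bases, 56.3% G or C, 8 CpG sites) and Ahctf1 chr1:179804016-179804265 (250 bases, 43.2% G or C, 7 CpG sites). Capitals mark the ETS, GC box and NRF1 letters, on either strand, in Nup107, and the E-box and ETS letters in Nup54, all spelled out with the promoter windows. Ahctf1 held none of the 9 motifs searched.
Nup107: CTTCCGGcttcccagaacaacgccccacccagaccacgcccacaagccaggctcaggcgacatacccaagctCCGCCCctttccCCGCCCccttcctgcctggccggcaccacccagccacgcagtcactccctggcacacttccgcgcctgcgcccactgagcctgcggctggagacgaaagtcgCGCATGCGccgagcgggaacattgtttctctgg
Nup54: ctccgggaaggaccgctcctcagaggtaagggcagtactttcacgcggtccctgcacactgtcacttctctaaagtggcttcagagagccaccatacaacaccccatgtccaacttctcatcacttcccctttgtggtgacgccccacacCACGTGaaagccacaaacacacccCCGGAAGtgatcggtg
Ahctf1: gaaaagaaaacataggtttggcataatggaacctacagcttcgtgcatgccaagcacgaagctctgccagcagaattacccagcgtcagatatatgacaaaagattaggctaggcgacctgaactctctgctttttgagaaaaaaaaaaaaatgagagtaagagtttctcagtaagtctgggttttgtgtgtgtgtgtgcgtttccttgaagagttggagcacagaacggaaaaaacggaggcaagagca
All 219 bases of Nup107 lay in a peak in each of the 6 lists. For Nup54, 190 bases were covered in 5 lists and 168 in LM replicate 2. For Ahctf1 the covered bases were 213 and 162 in mito, 144 and 148 in LM, then 148 and 178 in eG1-1. These 3 genes were picked from those with a start peak in all lists, and for downstream edges that differed. Covered bases before the start in all 3 groups thus follow largely from that choice.

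The promoter windows of pore and lamina genes, from 250 bases before to 50 after the start, were rich in CpG. Their median was 64.0% G or C and 28 CpG sites in the 33 genes, against 56.3% and 13 over 17491 genes. The 9 motifs were searched on both strands. The GC box GGGCGG was present in 25 of 33 windows (75.8%, against 46.3% of all windows) and CCAAT in 16 (48.5% against 39.2%). The ETS letters CCGGAAG were in 9 windows (27.3% against 11.9%), and the CRE letters TGACGTCA in 2 (6.06% against 2.33%). The YY1 letters AAGATGGCG were in 5 (Nup50, Nup88, Nup188, Nup205 and Lmnb2; 15.2% against 1.92%), and the NRF1 letters CGCATGCG in 3 (Nup107, Nup50 and Nup62; 9.09% against 2.55%). The E-box CACGTG was in 4 (12.1% against 7.91%). TATAAA was in 2, Ranbp2 and Nup160 (6.06% against 13.3%), and the octamer ATGCAAAT in 0 (against 1.72%). These are matches of letters in windows that are richer in G and C than most, and none of the shares was tested.

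Peaks inside the genes, more than 1 kb from either end, were more numerous in the eG1-1 lists, as they were in all genes. The 6 lists were merged into 58 internal regions in 22 of the 39 genes, a measure chosen after the data had been seen, and 27 regions were held in a single list. Of these regions, 13 and 19 were held in mito, 16 in each LM list, and 25 and 42 in eG1-1. Internal regions of all protein-coding genes numbered 7276 and 10055 in mito, 7289 and 6795 for LM, and 11970 and 19605 for eG1-1, so the count also moved with the list in genes as a whole. Pore and lamina genes held 0.179% and 0.189% of them in mito, and 0.209% and 0.214% in eG1-1. A peak in both eG1-1 and neither mito list was found in 6 regions (10.3%), those of Tpr, Nup43, Nup107, Nup88, Nup210 and Nup93, beside 9.83% of the internal regions of all protein-coding genes. This share lies near the background. The opposite order was found in 1 region, in Lmnb1, beside 1.25%. Regions in eG1-1 and not in LM numbered 7 (beside 10.7%), and those in mito and not in LM 1 (beside 3.10%). No region was in LM and not in mito (beside 0.995%), or in LM and not in eG1-1 (beside 0.422%); without LM replicate 2 these counts were 6 (beside 6.32%) and 4 (beside 4.41%).

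Among these 6 regions, those of Nup107 and Nup210 had the highest eG1-1 scores. The Nup107 region lay 16639 bp past the start and scored 74 and 86 in eG1-1 with no peak in mito or LM, while the peak at its start stood higher in rank in mito. The Nup210 region, chr6:91014494-91014867, lay 102146 bp past the start near the far end of the gene. It scored 137 and 139 in eG1-1 and 45 in LM replicate 1, with no peak in the other three lists, whereas the Nup210 start region scored 92 and 97 in mito. The regions in Nup93 (35 and 47 in eG1-1), Tpr (47 and 45), Nup88 (24 and 46) and Nup43 (30 and 26) were weaker. In Nup153, whose boundary peak was missing from eG1-1, an internal region at chr13:46694946-46695742 scored 28 in mito replicate 2, 42 in LM replicate 2, then 94 and 108 in eG1-1. In Lemd3, a region 40793 bp past the start scored 40 in mito replicate 2, 68 and 33 in LM, then 69 and 53 in eG1-1.

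The 6 internal regions held in all lists (10.3%, beside 9.36%) lay in Nup160, Nup188, Nup205, Nup133, Nup98 and Lmnb1. That of Nup160, chr2:90678647-90679912, is centred 2064 bp into this gene, which had no boundary peak. It scored 78 and 125 in mito, 109 and 65 in LM, then 110 and 179 in eG1-1. The Nup188 region, chr2:30335083-30336200, scored 45 and 79 in mito, 82 and 43 in LM, then 112 and 136 in eG1-1. The Nup205 region, chr6:35235873-35236966, scored 74 and 51, 78 and 64, and 113 and 169 in the same order. When these regions were ranked among the 2549 internal regions held in all lists, 5 of the 6 stood higher in both eG1-1 lists than in both mito lists, beside 23.5%, and 0 stood lower, beside 23.9%. Nup205 ranked at 49.9 and 12.4 in mito and 72.7 and 70.3 in eG1-1, and Nup188 at 17.8 and 35.9 and at 72.3 and 54.9. For Nup160, Nup133 and Nup98 the nearest mito and eG1-1 ranks lay close together. Nup160 ranked at 53.79 and 70.56 in mito and at 71.24 and 73.95 in eG1-1. Nup133 ranked at 47.69 and 46.84 in mito and at 50.04 and 81.66 in eG1-1. Nup98 ranked at 21.81 and 23.13 in mito and at 51.88 and 26.95 in eG1-1. The region without this order was that of Lmnb1, at 77.5 and 16.4 in mito and 83.8 and 54.0 in eG1-1.

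**Figure D5:**
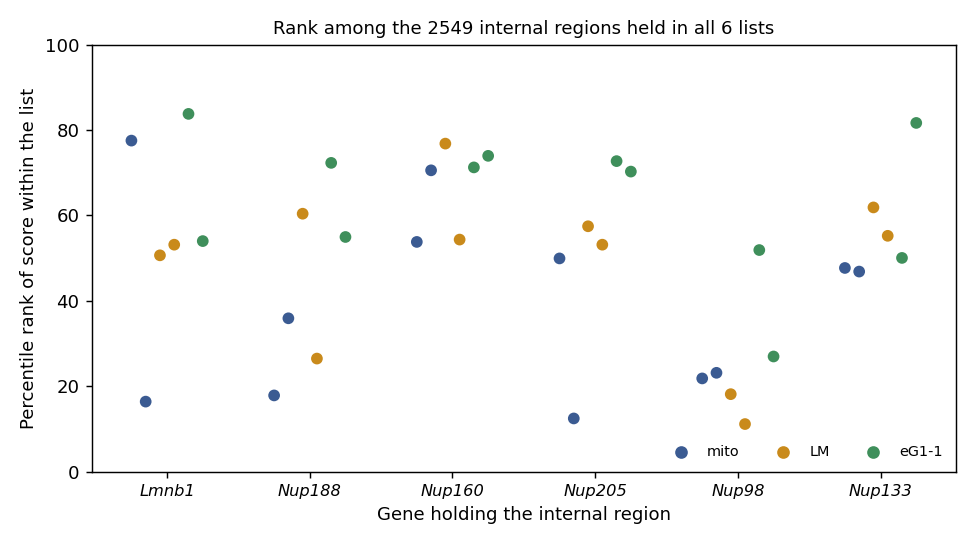
Percentile rank of the score within each list (y axis, 0 to 100, among 2549 internal regions held in all lists) for the 6 internal regions of pore and lamina genes held in all lists, by gene (x axis), with 1 point per list coloured by group. Both eG1-1 points lie above both mito points in each gene except Lmnb1, though the nearest points lie close together in Nup160, Nup133 and Nup98.

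Other genes of nuclear transport and envelope assembly were read from lists of 65 symbols, of which 63 were found (Nup58 and Nup42 were not matched). Of the 63 genes, 47 and 49 were held in mito, 51 and 43 in LM, then 43 and 50 in eG1-1, and 34 were held in all lists. Beside them stand the shares of all genes given above, 35.7% to 52.7% per list and 27.8% in all lists. Xpot and Ranbp1 (2 of 63) had peaks in mito and not in eG1-1, beside 1.97% of all genes, and Reep4 (1 of 63) the reverse, beside 1.60%. Xpot, the tRNA exporter, had no peak in eG1-1 and scored 93 and 99 in mito, 91 and 73 in LM. Ranbp1, a regulator of the Ran cycle, scored 47 and 49 in mito, 75 and 70 in LM, and also had none in eG1-1. Reep4, which clears membrane from mitotic chromosomes, was the only gene of the 63 held in both eG1-1 lists (70 and 122) and neither mito list, and it scored 87 in LM replicate 1. Chmp7, which brings ESCRT-III to the reforming envelope, was held throughout at scores from 93 to 171, as was Kpnb1 (importin beta) at scores from 141 to 219. Xpo1, the main protein exporter, scored 261 and 221 in mito, 183 and 138 in LM, then 66 and 166 in eG1-1. The transport genes with no boundary peak in any list were Xpo4, Xpo7, Kpna1, Rcc1, Kpna7 and Ipo8.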

How the data were processed

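ATAC-seq peak lists of 6 samples in 3 groups were used. Each deposited list gives chromosome, start, end, name and the authors' score per peak. Per the submitters' processing notes, the tools were MACS2 2.2.4, STAR 2.7.0e, bedtools, deepTools 3.5.1, Picard and SAMtools 1.10 with mm10 and GRCm38. Not given in the sources used here: their roles, the caller's threshold, the scale of the score and any Tn5 shift. Each list carries its own sample's peak names, so calling was done sample by sample. The lowest score was 13 in each list.

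Gene ends came from a RefSeq table (GRCm38.p6, no strand; 13 mitochondrial genes left out), and promoters from a RefSeq table with strand. An overlap of 1 bp counted. The members and gene lists were chosen with earlier results of these data known. Values were named for genes not held in all lists, the 6 highest and 6 lowest median ranks, and genes with the smallest trend p; other genes named, such as Nup93, Emd and those of the start and internal peaks, were chosen after their values were seen. With 2 lists per group the trend slope rests on mito and eG1-1, and LM enters through the permutations. Scripts were tested on simulated data and used Python 3.11.15, numpy 2.4.6 and pandas 2.3.3. Alternatives were other windows, score minimum, list length, start side, peak centre, replicate block and leaving out each list.

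Replicate number is the sequencing run, per the peak names, so the numbers pair the lists. Deviations of same-numbered lists over 6078 genes correlated at 0.0401 for mito and LM, 0.0608 for mito and eG1-1, and 0.0491 for LM and eG1-1.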

Additional observations from a re-analysis of the deposited data

How the results depend on the processing

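Of 152 values under other settings, 125 stayed within 1.5 times the reported count, and of 120 values with a list left out, 65 did; the cause of the others was not tested. Counts below are of genes or internal regions, as reported, with the share over all of them under the same setting in brackets. With the 20639 strongest peaks per list, 35 internal regions remained. Of these, 2 were in both eG1-1 and neither LM list (5.15%) and 3 in eG1-1 and not mito (7.11%). There were 2 in mito and not eG1-1 (4.2%) and 0 in mito and not LM (2.66%). There was 1 in LM and not mito (2.47%) and 1 in LM and not eG1-1 (2.78%). With these peaks, 1 gene was held in eG1-1 and not LM (0.74%). At scores of 50 or more, genes held numbered 1 for LM and not eG1-1 (0.352%) and 1 for eG1-1 and not mito (1.23%). For mito and not LM they numbered 3 (2.99%). Of 13 ranked genes, 1 ranked higher in eG1-1 than LM (18.6%). Of 25 internal regions, 0 were in mito and not LM (4.65%) and 2 in mito and not eG1-1 (1.79%). Counting starts only left 1 of 33 genes for eG1-1 and not LM (2.14%) and 1 for LM and not eG1-1 (0.412%). Windows of 2 kb left 1 (2.81%) and 1 (0.452%) in the same order, and 1 for mito and not eG1-1 (1.61%). With 500 bp windows, 3 genes were held in mito and not LM (2.06%) and 1 of 18 ranked higher in eG1-1 than LM (18.6%). Peak centres also gave 1 of 18 for that rank order (18.8%). With start peaks covering the start, 5 of 9 genes reached further downstream in mito (32.4%) and 2 in LM (11.5%) than in eG1-1.

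The replicate block, which compares lists within each sequencing run, gave 3 of 19 genes ranked higher in LM than mito (25.4%). Start peaks lay further downstream in 5 of 14 genes in mito than LM (35.2%). They did so in 1 gene in LM than mito (9.83%) and in 1 in eG1-1 than mito (13.2%). The block moved no other count by over 1.5 times.

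Leaving out each list in turn gave 19 to 24 genes in all lists, 34 to 36 in both mito, 22 to 34 in both LM and 27 to 30 in both eG1-1 lists. The shares of all genes were 28.1% to 32.8%, 46.5% to 50.4%, 35.7% to 47.4% and 42.1% to 52.7% in the same order. Genes in 1 group and not the other numbered 1 to 12 (mito, not LM), 0 to 1 (LM, not mito), 4 to 7 (mito, not eG1-1), 0 to 1 (eG1-1, not mito), 2 to 5 (LM, not eG1-1) and 2 to 7 (eG1-1, not LM). In the same order, genes ranked higher numbered 4 to 10, 3 to 8, 8 to 9, 5 to 7, 8 to 14 and 3 to 7, start peaks further downstream 3 to 12, 0 to 6, 9 to 11, 0 to 1, 4 to 14 and 1 to 6, and internal regions 1 to 7, 0 to 6, 1 to 3, 7 to 24, 0 to 4 and 8 to 26. Trends at the smallest p numbered 0 to 2 rising (2.31% to 6.49% of all ranked genes) and 0 to 4 falling (1.97% to 6.11%). The 12 genes came without LM replicate 1 (beside 11.3% of all genes), the 7 in mito and not eG1-1 without eG1-1 replicate 2 (7.88%) and the 24 of 58 regions without eG1-1 replicate 1 (40.2% of all regions). A group with 1 list is easier to separate, and the shares over all features moved as well. Over the pairs of groups, 32.2% to 38.4% of all ranked genes ranked higher, against 16.9% to 24.2% with all 6 lists. Genes held in 1 group and not the other were 0.832% to 11.3% of all genes, against 0.356% to 2.35%. In the order of pairs above, these shares were 3.42% to 11.3%, 0.905% to 2.29% and 2.97% to 7.88%. The last 3 pairs gave 2.51% to 5.43%, 0.832% to 3.29% and 3.43% to 8.83%. For start peaks the shares were 8.58% to 65.4%, against 4.74% to 31.4%. For internal regions the shares were 0.672% to 43.2%, against 0.422% to 10.7%. By pair they were 5.25% to 13.8%, 1.46% to 7.16% and 1.88% to 7.15%. The last 3 pairs gave 11.8% to 40.2%, 0.672% to 4.41% and 15.2% to 43.2%. Depth is unknown, so absent peaks could not be told from shallow reading.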

Other observations

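For Pom121, Lmna and Tmpo the start in the promoter table lies 10295, 6580 and 10133 bp inside the annotated end, and the peaks there differed from those of the annotated ends. The Lmna region at that start scored 78 in mito replicate 2, then 70 and 158 in eG1-1, and had none in the other lists. The Tmpo region there scored 54 and 71 in mito, 65 in LM replicate 1 and 53 in eG1-1 replicate 2. Pom121 scored 46 in LM replicate 1 and had no peak there in the other lists. The Tmpo peak at the annotated end overlapped tRNA genes in both mito lists and LM replicate 1. A second Lmna region, 10228 bp past that start, scored 69 and 71 in mito, 54 and 22 in LM, and 33 in eG1-1 replicate 2, with no peak in eG1-1 replicate 1. A region of Lmnb1 inside the gene scored 29 and 50 in mito and was in no other list, while another internal region of that gene scored 111 and 57 in mito, 70 and 64 in LM, then 143 and 135 in eG1-1.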
